A study of Mus musculus with 10 samples.

Results

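The 10 genes described here encode the AMPA receptor, the channel that carries most fast excitatory current in the cortex, and its best known partner proteins. They were taken by symbol from the authors' deposited table: the pore subunit genes Gria1, Gria2, Gria3 and Gria4, the transmembrane AMPA receptor regulatory protein (TARP) genes Cacng2, Cacng3 and Cacng8, the cornichon genes Cnih2 and Cnih3, and Shisa9. All 10 were found among the 13661 genes of that table, and all 10 had a p-value. The study compared cerebral cortex of wild-type (WT) male mice at 8 weeks of age with that of males of the same age carrying a Chd8 knock-in (KI) allele, a model of duplication of a chromatin remodeller gene linked to autism. There were 5 libraries of poly(A) RNA per genotype. The labels give neither the strain, the construct or promoter of the knock-in allele, nor whether it was carried on one or both chromosomes, and they do not say whether animals shared a litter.

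AMPA receptors are assembled as tetramers of pore subunits that open when glutamate binds. TARPs and cornichons escort the pore subunits to the cell surface and slow the closing of the channel, TARPs tie the receptor to the scaffold PSD-95, and Shisa9 (also known as CKAMP44) shapes desensitisation. Which subunits and partners a neuron makes sets calcium entry, current time course and the room for synaptic plasticity.

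The pore windows are shown because a single codon in them separates the subunits in function. In GluA2, the Gria2 product, RNA editing by ADAR2 recodes a glutamine codon in the pore loop to arginine, which blocks calcium entry. The coding-strand sequences below run 5′ to 3′, come from GENCODE M21 transcripts on GRCm38, and have that codon, or its counterpart in the other subunits, in capitals.
Gria1: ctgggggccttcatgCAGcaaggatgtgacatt
Gria2: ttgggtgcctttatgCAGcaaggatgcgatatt
Gria3: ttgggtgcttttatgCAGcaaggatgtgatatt
Gria4: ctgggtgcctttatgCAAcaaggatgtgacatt
They lie at chr11:57243079-57243111 on the plus strand for Gria1, chr3:80706896-80706928 on the minus strand for Gria2, chrX:41610250-41610282 on the plus strand for Gria3 and chr9:4464122-4464154 on the minus strand for Gria4. Each window lies within a single coding exon. The genomic codon was CAG in Gria1, Gria2 and Gria3 and CAA in Gria4, both of which encode glutamine. The windows of Gria2 and Gria3 differed at 2 of 33 bases and those of Gria1 and Gria2 at 5. Gene-level counts do not show how much of the Gria2 RNA was edited.

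The coding ends of the TARPs and of Shisa9 are shown because they encode the tail that binds PDZ domains of scaffold proteins. The last 4 codons before the stop are in capitals.
Cacng2: gccaaccgccggACCACGCCCGTA
Cacng3: gccaacagacgtACCACGCCTGTC
Cacng8: ctcaacaggaaaACCACGCCCGTG
Shisa9: aacagcaaaacaGAAGTGACTGTC
They lie at chr15:77995152-77995175 (minus strand), chr7:122768820-122768843 (plus), chr7:3415579-3415602 (plus) and chr16:12267777-12267800 (plus), in the order listed. The windows of Cacng2 and Cacng3 differed at 5 of 24 bases, and each differed from that of Cacng8 at 8. Identity was taken over the aligned bases of the coding sequences, with gaps left out. Between pore subunits it ran from 68.7% for Gria1 and Gria4 to 72.8% for Gria2 and Gria4. Identity was 72.1% for Cacng2 and Cacng3, 68.9% for Cacng2 and Cacng8, 66.6% for Cacng3 and Cacng8 and 77.1% for Cnih2 and Cnih3. Of the 45 pairs of the 10 genes, 3 shared any exact stretch of 50 bases in their annotated transcripts, all among Gria2, Gria3 and Gria4 and at no more than 9 positions a pair.

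In the RefSeq annotation of GRCm38 all 10 genes are protein-coding. Gria1 lies on chromosome 11 from 57011571 to 57330244, Gria2 on chromosome 3 from 80681450 to 80804227, Gria3 on chromosome X from 41400819 to 41678601, and Gria4 on chromosome 9 from 4417893 to 4796234. Cacng2 lies on chromosome 15 from 77991919 to 78120220. Cacng3 and Cacng8 share chromosome 7, at 122671744 to 122769393 and 3394042 to 3416266. Cnih2 lies on chromosome 19 from 5092868 to 5098521, Cnih3 on chromosome 1 from 181350459 to 181460641 and Shisa9 on chromosome 16 from 11983593 to 12270904. Exons of 6 of the 10 genes overlap those of another GENCODE gene: small miRNA genes on the same strand at Gria2, Gria3, Gria4 and Cacng8, the antisense gene A730060N03Rik over 323 bases of Cacng2, and 14 bases of Yif1a at Cnih2. The sources used here do not say whether counting used the strand, so reads of Cacng2 and of its antisense partner cannot be told apart. Yif1a was the 1 overlapping gene that was tested, at -0.068 on the log2 scale (SE 0.12) in the authors' deposited table.

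The table gives no value per library. The level of each gene is therefore the authors' mean normalised count over all libraries of both genotypes, with no spread, and whether neighbours in the order differ beyond the spread between mice cannot be said. In the authors' deposited table the means were 9470 for Gria1, 15454 for Gria2, 5518 for Gria3 and 2357 for Gria4, with 1116 for Cacng2, 1972 for Cacng3, 1948 for Cacng8, 5055 for Cnih2, 1720 for Cnih3 and 1448 for Shisa9.

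Because long transcripts collect more reads, levels were compared between genes only after division by the length of the longest GENCODE transcript. On this scale Cnih2 led with 3764 normalised counts per kb. The pore subunits followed, with 1708 for Gria1, 1490 for Gria2 and 1059.9 for Gria3, while Gria4 had 433 normalised counts per kb. Gria1 and Gria2 together thus held most of the pore subunit signal per length, at 36.4% and 31.8%, against 22.6% for Gria3 and 9.24% for Gria4. Among the TARPs the order was Cacng8 with 1027 normalised counts per kb, Cacng3 with 710.0 and Cacng2, also called stargazin, with 202. Cnih3 had 645 and Shisa9 had 335 on the same scale. An alternative added after seeing the data took the union of all annotated exons as the length. Gria3 then moved from rank 4 to rank 7 of the 10 (560 normalised counts per kb), and Cnih2, Gria1 and Gria2 stayed in ranks 1 to 3. With that length the pore subunit shares were 44.8% for Gria1, 28.4% for Gria2, 16.0% for Gria3 and 10.7% for Gria4, so they depend on the length used.

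**Figure D1:**
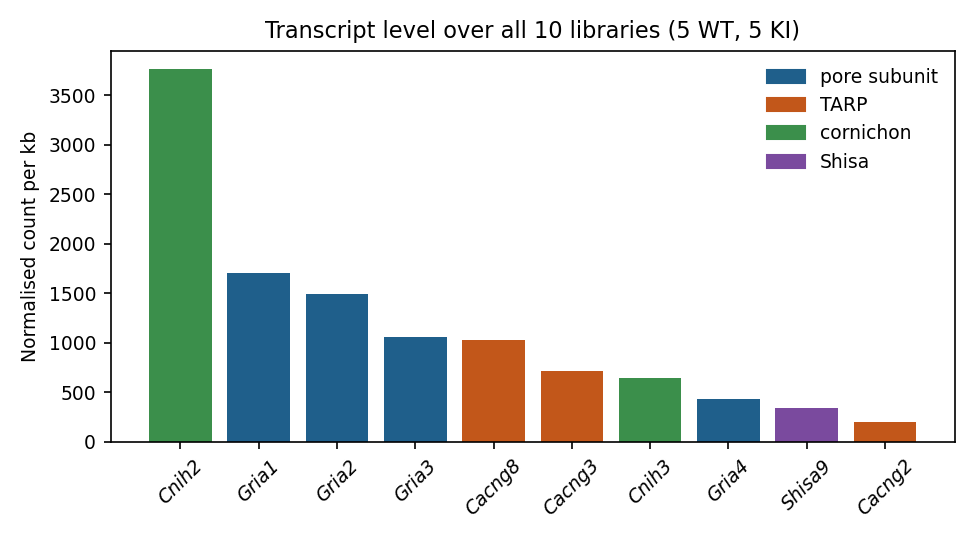
Mean normalised count over the 5 WT and 5 KI libraries per kb of the longest transcript (vertical axis, linear from 0), one bar per gene, coloured by role. Cnih2 stands highest at 3764, the pore subunits Gria1 and Gria2 follow at 1708 and 1490, and Cacng2 is lowest at 202; no error bars are drawn because the table holds no value per library.

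Chd8, the targeted gene, had a log2 fold change of 0.49 (standard error, SE, 0.10) and an adjusted p of 0.0044 (the authors' Wald test in DESeq2) per the authors' deposited table, which is 1.40-fold with a 95% normal interval from 1.22 to 1.61. Which genotype is the numerator is not stated in the header. KI was taken as the numerator, the choice that puts Chd8 above WT, so the sign of Chd8 checks nothing, and every direction below would flip together with it. At an adjusted p under 0.05 the authors' deposited table calls 10 of 13660 genes tested, 1 higher and 9 lower. With a t reference with 8 degrees of freedom in place of the normal one, neither Chd8 (adjusted p = 0.9999) nor any other gene passed, so every call named here rests on the normal reference.

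None of the 10 AMPA receptor genes passed that threshold in either direction, against a background of 0.0732% of all genes tested (0.00732% higher, 0.0659% lower), at which no call among 10 genes is the usual outcome. Per the authors' deposited table, the adjusted p was 0.9999 for each of the 10 (Wald test in DESeq2), and none had an unadjusted p under 0.05, which 3.22% of all genes had. The members' log2 fold changes ran from -0.051 to 0.086, with a median of 0.042 against 0.0025 over all genes. A positive value was listed for 8 of the 10 genes, against 51.6% of all genes and 56.0% of the 4617 genes whose mean normalised count reached 1000. Counts and medians are given as a description: no test was made of the members as a list. In whole cortex, fewer cells of a type and less RNA per cell cannot be told apart.

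The estimates were also precise. All 10 standard errors, from 0.043 to 0.075 on the log2 scale, lay below the median of 0.089 over all genes, and the median was 0.060 for those 4617 abundant genes. The 95% normal interval of every member included 0 and lay within 1.2-fold in both directions, a bound chosen after the values were seen. The same interval was that narrow and that close to 0 for 58.3% of all genes, and for 92.3% of the 4617 abundant genes, so the members are like other abundant genes in this respect. Over the 10 genes the lowest bound was 0.903 of WT, for Shisa9, and the highest was 1.18-fold, for Gria2. A normal reference treats each standard error as known, though it was estimated from 5 libraries per genotype. The 8 degrees of freedom of the t reference count libraries only, not any information shared between genes in the fit. Over all genes the Wald scores had a standard deviation (SD) of 0.897. An unadjusted p under 0.05 was listed for 440 genes (3.22%) with the normal reference and 212 with the t reference. Which of the normal and t references is nearer the right size was not tested.

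Among the pore subunits all 4 log2 fold changes were above 0, with a median of 0.049. Gria2, whose product keeps the channel closed to calcium, had the highest of the 10 at 0.086 (SE 0.075, unadjusted p = 0.251) in the authors' deposited table, which is 1.06-fold with an interval from 0.959 to 1.18. Gria3, the X-linked subunit gene, stood at 0.057 (0.060) and Gria1, the subunit central to activity-driven insertion at synapses, at 0.041 (0.056) in the authors' deposited table. For these 2 genes the intervals were 0.959 to 1.13 and 0.954 to 1.11 as folds. Gria4, which is prominent in fast-spiking interneurons, stood at 0.0061 (0.066) in the authors' deposited table, with an interval from 0.919 to 1.10. The 4 values spanned 0.080 on the log2 scale, little more than the standard error of Gria2 alone. Differences between subunits were not tested, since the table holds no covariance between genes.

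The TARPs gave values on both sides of 0. Cacng8, the TARP known for its role in the hippocampus and forebrain, had the smallest p of the 10 genes (unadjusted p = 0.146, rank 1348 by p of all genes tested) with a log2 value of 0.062 (SE 0.043) in the authors' deposited table. As a fold this was 1.04, with an interval from 0.985 to 1.11, the narrowest of the members. Cacng2, the founding TARP, stood at 0.027 (0.075) and Cacng3 at -0.0036 (0.059) in the authors' deposited table, with intervals from 0.920 to 1.13 and 0.920 to 1.08. All 3 intervals included no change.

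The cornichons had closely similar values. Cnih2, the most abundant of the 10 per length, stood at 0.043 (SE 0.071) and Cnih3 at 0.055 (0.073) in the authors' deposited table. Their intervals were 0.935 to 1.13 and 0.940 to 1.15 as folds. Shisa9 had the lowest value of the 10, at -0.051 (0.049, unadjusted p = 0.302) in the authors' deposited table, or 0.965 of WT with an interval from 0.903 to 1.03. None of these 3 values was past the threshold.

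**Figure D2:**
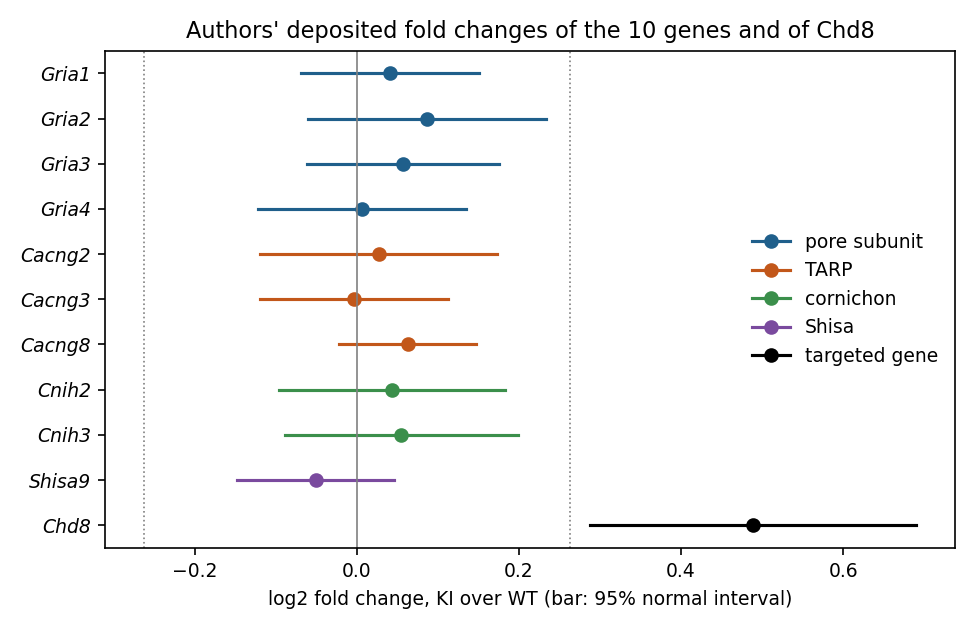
Log2 fold change of KI over WT (horizontal axis) for the 10 genes by role and for Chd8, with points for the authors' deposited values, bars for 95% normal intervals and dotted lines at 1.2-fold either way. The interval of each AMPA receptor gene crosses 0 and stays within the dotted lines, while that of Chd8 runs from 1.22- to 1.61-fold.

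Transcript length moved with the fold change across the table, and the pore subunit transcripts are long. Over 13098 genes, which are not independent replicates, the log2 fold change and transcript length had a Spearman correlation of 0.236, given as a description. The median log2 fold change went from -0.041 in the shortest of 20 length bins (median 933 bases) to 0.052 in the longest (median 10338 bases). The longest transcript of Gria2 has 10371 bases, and its value of 0.086 in the authors' deposited table compares with 0.052 for genes of that length. Gria1, Gria3 and Gria4, at 5546, 5206 and 5441 bases, compare with a typical value of 0.015 to 0.016. The cornichons and Cacng8 have shorter transcripts (1343 bases for Cnih2, 2668 for Cnih3 and 1897 for Cacng8), where the typical gene was slightly negative, at -0.033, -0.0086 and -0.021.

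Relative to genes of like length, 8 of the 10 genes again lay above 0, with a median of 0.030. They were not all the same genes: Gria4 moved to -0.0096 and Cacng3 to 0.0032, while Shisa9 stayed below at -0.056. Cacng8 (0.083), Cnih2 (0.076) and Cnih3 (0.063) then stood farthest above, ahead of Gria3 (0.041), Gria2 (0.035) and Gria1 (0.025). So the order among the members depends on whether length is taken into account. It also rests on the longest annotated transcript, since gene-level counts do not show which transcript was expressed. No other length was tried for the trend. No member passed the threshold on either scale. The part of length in these values was not tested.

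**Figure D3:**
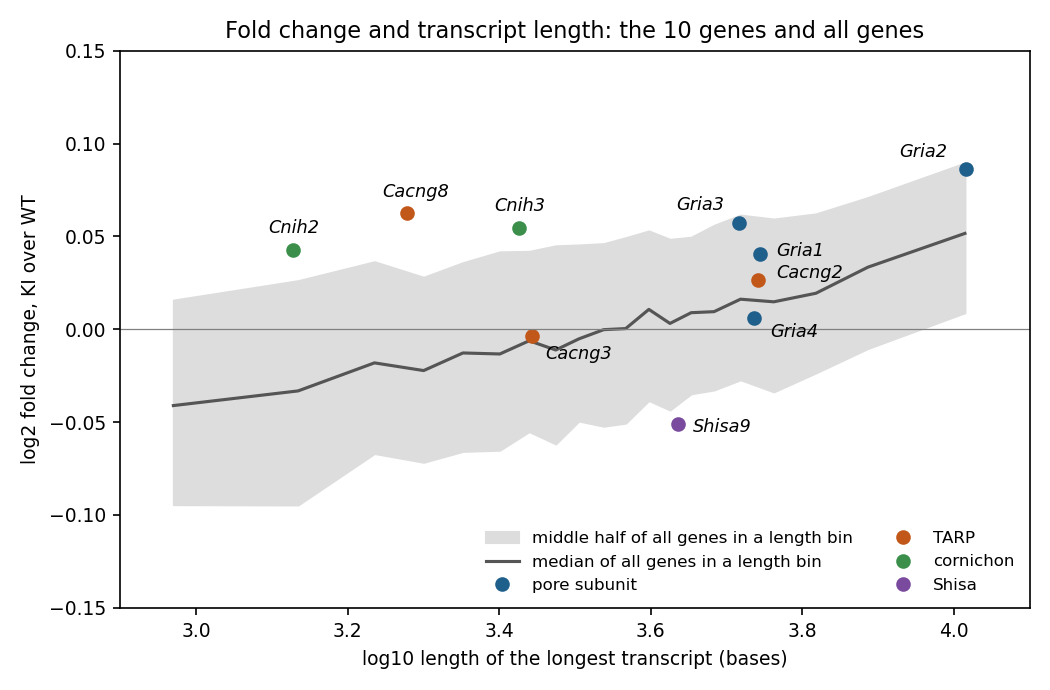
Log2 fold change of KI over WT (vertical axis) against log10 length of the longest transcript (horizontal axis). Points are the 10 genes by role, the line is the median of all genes in each of 20 length bins and the band is the middle 50% of genes; Cnih2, Cacng8 and Cnih3 lie above the band, Shisa9 lies below it, and Gria2 sits at its upper edge.

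The wider AMPA receptor machinery was followed in lists of 67 genes, all of them tested. None passed the threshold in either direction by the authors' Wald test, and 4 had an unadjusted p under 0.05 (2 higher, 2 lower), which 3.22% of all genes had. Their median log2 fold change was 0.014 (37 positive and 30 negative, against 51.6% positive over all genes), between the 0.0025 of all genes and the 0.042 of the 10 receptor genes. Of 24 genes for other complex and biogenesis proteins, 13 were positive and 11 negative (median 0.0061). The pair with the smallest p were also the pair with the lowest values: Cacng5, a TARP of a divergent class, at -0.30 (SE 0.12, unadjusted p = 0.0110) and Shisa8 at -0.32 (0.14, unadjusted p = 0.0188) in the authors' deposited table, with adjusted p = 0.9999 for both. Their mean normalised counts were 303 and 94.9. Sacm1l, a phosphatase found with assembling receptors, stood at -0.10 (0.054), and Cpt1c, another assembly factor, at 0.086 (0.060) in the authors' deposited table.

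Trafficking, anchoring and clustering genes had a median of 0.020 (15 of 28 positive). The smallest p was that of Epb41l1, which encodes the cytoskeletal linker 4.1N that binds GluA1, at 0.080 (SE 0.027, unadjusted p = 0.00336, adjusted p = 0.867) in the authors' deposited table. Next were Cplx2, a complexin, at 0.078 (0.041), Grip1, a scaffold that binds the tails of GluA2 and GluA3, at 0.18 (0.097) and the syntaxin gene Stx4a at -0.13 (0.082), again from the authors' deposited table. None of these passed.

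The list of ADAR family, kinase and phosphatase genes had a median of 0.014 (9 of 15 positive). Camk2a, encoding a kinase that phosphorylates GluA1, had the smallest p, at 0.12 (SE 0.042, unadjusted p = 0.00616, adjusted p = 0.9999) in the authors' deposited table. Adarb1, which encodes ADAR2, the editor of the Gria2 codon printed above, stood at -0.10 (0.060, unadjusted p = 0.0962) in the authors' deposited table, with an interval from 0.860 to 1.01 of WT. Ptpn5 (STEP), a phosphatase that promotes receptor removal, stood at -0.081 (0.054) and Prkcb, a protein kinase C gene, at 0.075 (0.061) in the authors' deposited table. The intervals of Adarb1 and of its target gene Gria2 both included no change, and neither gene passed the threshold. A relation between their values was not tested.

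Genes of the other ionotropic glutamate receptors had log2 fold changes in a like range, but those of the NMDA list were less precise. The median standard error was 0.092 for the NMDA list and 0.069 for the kainate list, against 0.063 for the AMPA receptor genes. The 6 tested NMDA receptor subunit genes of 7 had a median log2 fold change of 0.020 (3 positive), and the one with the smallest p was Grin3a at 0.10 (SE 0.097) in the authors' deposited table. The 7 kainate receptor and Neto genes had a median of 0.054 (5 positive), and the smallest p was that of Grik5 at 0.080 (0.041, unadjusted p = 0.0516) in the authors' deposited table. No gene of these 2 lists passed by the authors' Wald test or had an unadjusted p under 0.05. Whether the AMPA receptor genes differ from them was not tested, and the ranges overlap (-0.051 to 0.086, against -0.023 to 0.10 and -0.050 to 0.095).

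Marker genes give the tissue in which these values stand. All 12 cortical excitatory neuron markers were tested, with Slc17a7, the vesicular glutamate transporter of these cells, at a mean normalised count of 28078, and their median log2 fold change was 0.038 (9 positive), close to the 0.042 of the receptor genes. Slc17a7 stood at 0.062 (SE 0.039) and Neurod2 at 0.15 (0.084) in the authors' deposited table. Inhibitory neuron markers had a median of -0.012 (5 of 12 positive), with Gad1 at -0.016 (0.051) and Pvalb, of fast-spiking cells, at -0.15 (0.079) in the authors' deposited table. Hippocampal markers, of interest because Cacng8 and Cnih2 are abundant there, had a median of 0.091 (9 of 11 positive), with Dsp at 0.60 (0.17, adjusted p = 0.39) and Wfs1 at -0.079 (0.059) in the authors' deposited table. The median standard error of that list was 0.13, above its median log2 fold change, and its median mean normalised count was 293. No hippocampal marker passed by the authors' Wald test. An unadjusted p under 0.05 was listed for 1 of the 11, against 3.22% of all genes.

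The thalamic, meningeal and choroid plexus, and striatal marker lists had negative medians. Of 12 tested thalamic markers of 13, 10 were negative (median -0.36) and 4 passed the threshold on the lower side, where 0.0659% of all genes did and none with the t reference; the smallest p was that of Tnnt1 at -1.34 (SE 0.26, adjusted p = 0.0013), while Slc17a6 stood at -0.32 (0.11), both in the authors' deposited table. All 15 meningeal and choroid plexus markers were negative (median -0.27) and 1 passed, though not with the t reference, Igf2 at -0.29 (0.059, adjusted p = 0.0022), with Ttr at -0.12 (0.096) in the authors' deposited table. All 12 striatal markers were negative (median -0.10), among them Drd1 at -0.14 (0.10) and Ppp1r1b at -0.091 (0.077) in the authors' deposited table. No striatal marker passed or had an unadjusted p under 0.05. Such a p was listed for 8 of the 12 thalamic and 8 of the 15 meningeal and choroid plexus markers, all lower. Over all genes the share in either direction was 3.22%. These lists were written with earlier results of these data known, so their direction is no independent evidence.

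For glia, all 12 markers of mature oligodendrocytes were negative (median -0.081), with Cnp at -0.10 (SE 0.038) and Mbp at -0.070 (0.053) in the authors' deposited table. The list for oligodendrocyte precursors, which carry AMPA receptors of their own, had a median of -0.0051 (4 of 8 positive). Pdgfra stood at 0.14 (0.052) and Olig1 at -0.067 (0.085) in the authors' deposited table. Some genes of that list, among them Olig1, are not particular to precursors. Astrocyte markers had a median of -0.0038 (4 of 8 positive), with Aldh1l1 at -0.13 (0.062) and Slc1a2 at 0.11 (0.065) in the authors' deposited table. No glial marker passed the threshold by the authors' Wald test. An unadjusted p under 0.05 was listed for 2 of 12 mature oligodendrocyte markers, 1 of 8 precursor markers and 1 of 8 astrocyte markers. Over all genes the share was 3.22%. The part of tissue composition in the values of the receptor genes was not tested.

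**Figure D4:**
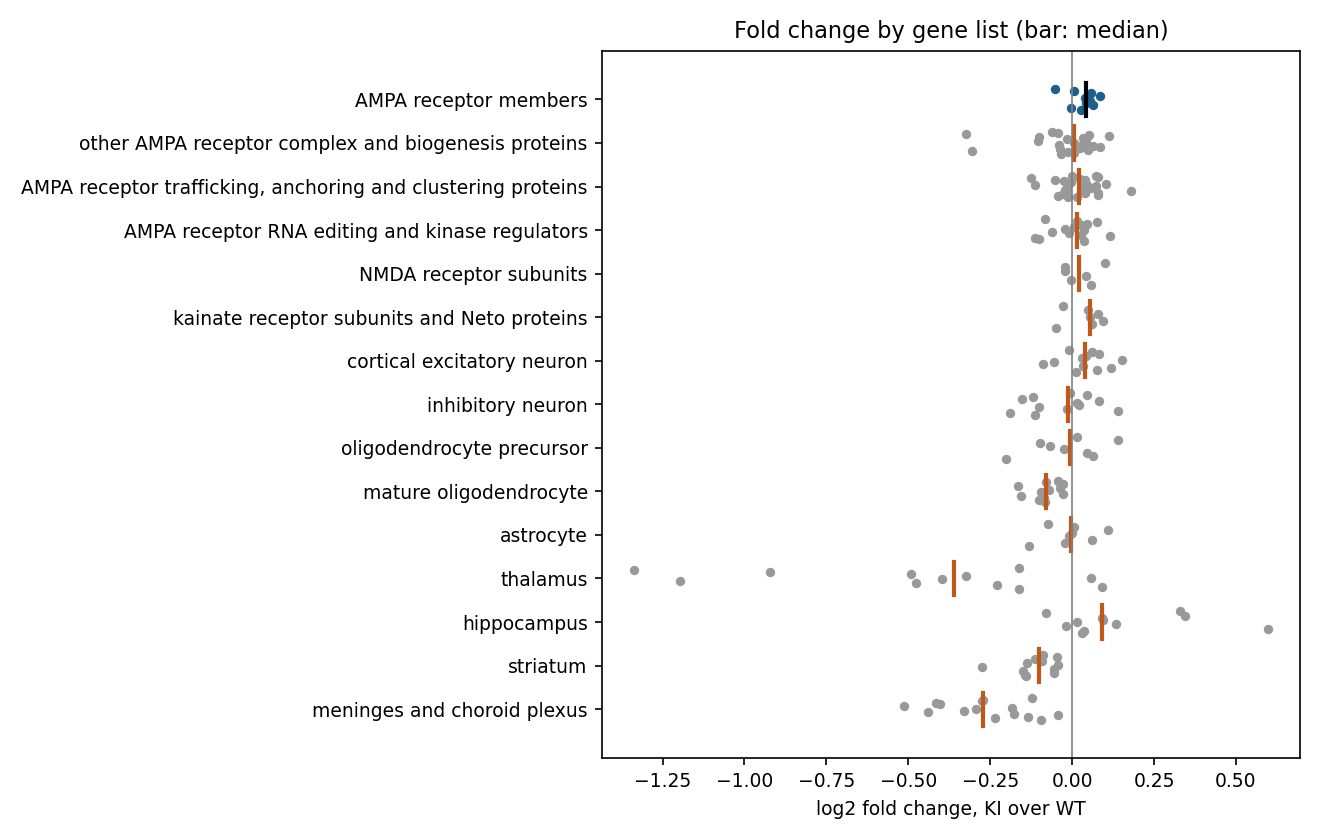
Log2 fold change of KI over WT (horizontal axis) for each tested gene of each list, one point per gene, with a bar at the list median. The 10 AMPA receptor genes (top row) lie between -0.051 and 0.086, and the thalamic list (median -0.36) and the meningeal and choroid plexus list (median -0.27) lie farthest to the left.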

How the data were processed

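Cortex RNA from 10 mice (5 WT, 5 KI) was sequenced. Per the submitters' processing notes, the tools were Trimmomatic 0.39, HISAT2 2.1.0, featureCounts 2.0.0 and DESeq2 1.26.0, with build mm10; the sources used here do not give their settings, annotation, filters or model. Per the file headers, the authors' deposited table holds a mean normalised count (a signal value), a log2 fold change with its standard error, a Wald score, a p-value and an adjusted p-value per gene. Library depth is unknown, and no test across libraries could be run, as the fixed design foresaw. Its lowest mean normalised count was 24.4. The deposited adjusted p-values equalled a Benjamini-Hochberg adjustment over 13660 genes; 1 gene had no p-value.

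RefSeq GRCm38 (the assembly of mm10) named 13497 of 13661 gene numbers. Intervals are 95% normal intervals from the deposited standard errors. Lengths, overlaps and sequences came from GENCODE M21 (13098 genes with a length), handled in Python 3.11.15 with scipy 1.17.1 and Biopython 1.88. Named genes are the 10 members, Chd8, the 4 smallest p-values per pathway list, the 1 smallest per neighbouring receptor list, and per marker list the smallest p and the highest mean; Yif1a was added after its overlap was seen. Members and lists were chosen with earlier results of these data known. The adjustment and the length trend were tested on simulated data, with added effects larger than any of the members' values. Recovery of effects as small as the members' values was not tested.

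Alternatives were count minimums of 50 and 200, adjusted p under 0.1 and 0.01, a t reference with 8 degrees of freedom, Wald scores divided by their SD, centring on the median gene and removal of the length trend.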

Additional observations from a re-analysis of the deposited data

How the results depend on the processing

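No AMPA receptor gene, and no gene of the pathway, NMDA or kainate lists, passed under any of the 8 alternatives tried. The members' median log2 fold change was 0.042 as deposited, 0.039 after centring and 0.030 after removal of the length trend. Their mean weighted by precision was 0.029, and the median of the pore subunits only was 0.049. Of the 10 members, 8 were positive as deposited, after centring and, with Cacng3 in place of Gria4, after removal of the length trend. With the length trend removed, 2 single genes changed sign without passing: Gria4 from 0.0061 to -0.0096 and Cacng3 from -0.0036 to 0.0032. Over all genes, 6 calls passed at adjusted p under 0.01 and 0 with a t reference with 8 degrees of freedom, against 10 in the authors' deposited table (where 440 genes, and with the t reference 212, had an unadjusted p under 0.05). The count was 13 with Wald scores divided by their SD, 7 at a count minimum of 200, 9 without the length trend, and 10 at a count minimum of 50, at adjusted p under 0.1 and after centring. With that t reference Chd8, at the same log2 fold change of 0.49, no longer passed (adjusted p = 0.9999). No paired analysis was possible because the table has no value per library, and leaving out single replicates was not run for the same reason. Depth per library is unknown.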
